A study of Mus musculus with 8 samples.

Results

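The genes that build the T cell receptor and mark T cells were examined in spleens of mice without Nix. The set was a list of 37 gene symbols, chosen by name and function with earlier results of these data known. It covers the CD3 chains, the CD4 and CD8 coreceptors, the kinases and adaptors next to the receptor, adhesion and costimulatory molecules, receptors of naive T cells, and transcription factors of the lineage. On the arrays 35 of the 37 symbols had a probe set, 72 probe sets in all. Lck and Tcf7 were not named by the annotation and were not analysed here. Whole-spleen RNA came from mice of 8 weeks, 4 Nix null (Nix-/-, called Nix_KO here) and 4 wild type (WT), with 1 Affymetrix array per animal and no treatment. Nix is the product of Bnip3l, a mitochondrial protein of the BCL2 family that takes part in removing mitochondria from maturing red cells. The sources used here do not give the strain, the sex or the removed part of the gene. The title numbers tell the arrays of a genotype apart (10, 2, 3 and 6 for Nix_KO; 3, 4, 5 and 6 for WT).

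The T cell receptor binds peptide held by MHC molecules and has almost no cytoplasmic part of its own. It signals through the CD3 chains and the zeta chain, whose phosphorylated tyrosines recruit the kinase ZAP-70, which in turn phosphorylates the adaptors LAT and SLP-76. CD4 marks helper and regulatory T cells, which see MHC class II, and CD8 marks cytotoxic T cells, which see MHC class I. In the spleen T cells lie in sheaths around the arterioles of the white pulp, where naive T cells are drawn by the receptor CCR7.

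Levels are log2 intensities, and a probe set was tested where it reached a log2 intensity of 5 in at least 4 of the 8 arrays. Differences are Nix_KO minus WT and were tested with limma over all 11027 genes that passed, each by its brightest probe set. A gene is said to have risen or fallen where its Benjamini-Hochberg adjusted p was under 0.05, and every adjusted p of a single gene is from that limma fit. Between 48.6% and 49.3% of probe sets reached the minimum in each array. The 3 probe sets of Bnip3l, shared with its pseudogene Bnip3l-ps, read between 9.38 and 13.16 in the 8 arrays, and 0 of the 3 passed, so the genotype labels were not checked by them. Erythroid and pancreatic signal set arrays apart. The summed intensity of 9 annotated erythroid marker genes ran from 108290 to 138096 in Nix_KO and from 25487 to 60355 in WT arrays. Of these genes 9 of 9 rose, beside 14.2% of all genes tested. The sum of 9 pancreatic acinar genes was 88236 in Nix_KO 3, 47293 in WT 3 and 12767 in WT 5, and between 955 and 2392 in the other arrays, so counts are also given without those 3 arrays.

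The CD3 genes define the T cell and the CD8 genes its cytotoxic branch, and the DNA just before the start site is shown for 4 of them. Promoter windows of RefSeq (GRCm38.p6) were held for 26 of the 37 members, Cd4 and Cd8b1 not among them. Each run is the 250 bases before the start site, 5′ to 3′ on the strand of the gene. Capitals mark the letters CTTTGA, a core of TCF and LEF factor sites, and GGAAGT, an ETS core, on either strand.
Cd3g, chr9:44980432-44980681, minus strand: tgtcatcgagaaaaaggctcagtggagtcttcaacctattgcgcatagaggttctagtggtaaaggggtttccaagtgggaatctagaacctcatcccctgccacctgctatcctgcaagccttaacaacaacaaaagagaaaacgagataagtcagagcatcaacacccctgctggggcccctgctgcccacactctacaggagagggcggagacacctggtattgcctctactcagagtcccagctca
Cd3d, chr9:44981536-44981785, plus strand: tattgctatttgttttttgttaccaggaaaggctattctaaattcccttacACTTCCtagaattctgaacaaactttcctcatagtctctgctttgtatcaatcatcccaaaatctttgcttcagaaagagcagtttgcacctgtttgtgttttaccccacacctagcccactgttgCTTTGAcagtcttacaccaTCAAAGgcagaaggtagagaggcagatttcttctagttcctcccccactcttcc
Cd3e, chr9:45009612-45009861, minus strand: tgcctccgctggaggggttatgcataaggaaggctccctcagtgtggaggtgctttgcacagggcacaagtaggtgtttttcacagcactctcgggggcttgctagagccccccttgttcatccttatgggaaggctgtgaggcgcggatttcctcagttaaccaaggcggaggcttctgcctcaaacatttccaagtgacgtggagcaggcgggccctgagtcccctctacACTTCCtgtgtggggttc
Cd8a, chr6:71373177-71373426, plus strand: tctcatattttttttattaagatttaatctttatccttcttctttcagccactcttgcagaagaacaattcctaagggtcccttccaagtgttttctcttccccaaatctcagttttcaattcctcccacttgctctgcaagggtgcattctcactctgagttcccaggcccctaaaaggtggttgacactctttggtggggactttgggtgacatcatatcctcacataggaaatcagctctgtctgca
Cd3d held CTTTGA on both strands and GGAAGT on the opposite strand, Cd3e held GGAAGT on the opposite strand, and the Cd3g and Cd8a windows held neither. The RUNX core TGTGGT was searched too and was in none of these 4 windows. Of 40 windows of the 26 members, 15 (37.5%) held GGAAGT, 8 (20%) CTTTGA and 4 (10%) TGTGGT, in either direction. Of all 32851 windows of the same length, 19.7% held GGAAGT, 13.8% CTTTGA and 14% TGTGGT. The motifs do not overlap each other in the windows shown, and some members have several windows. Several members are direct neighbours in the genome: Cd3g, Cd3d and Cd3e on chromosome 9, Cd8b1 and Cd8a on chromosome 6, Cd28, Ctla4 and Icos on chromosome 1, and Cd5 and Cd6 on chromosome 19.

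T cell genes were lower in Nix_KO spleen, with CD8 genes, Thy1 and Cd2 changed most clearly, while Cd4, Il7r and Ikzf2 did not pass the test. Of 33 tested members 19 fell, 0 rose and 14 did not pass. The share that fell was 57.6%, beside 24.1% of all genes tested, and 14.2% of all genes rose. Of the 33, 32 had a negative difference, beside 60.3% of all genes. The median log2 difference of the tested members was -0.76, beside -0.15 over all genes, and the range was from -1.42 to 0.06. A fall of at least 2-fold was called for 9 members (27.3%), beside 7.63% of all genes. In 8 members (24.2%) every Nix_KO array lay below every WT array, a share close to the 23.9% of all genes. At the level of probe sets 25 of 63 fell (39.7%, beside 17.6% of all probe sets tested) and 0 rose (12.5% of all). In whole-tissue RNA fewer T cells, less RNA per T cell and a larger share of RNA from other cells cannot be told apart. All 11 tested B cell markers fell too (median -1.41), and the part of B cells in the level of Cd2 was not tested.

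**Figure D1:**
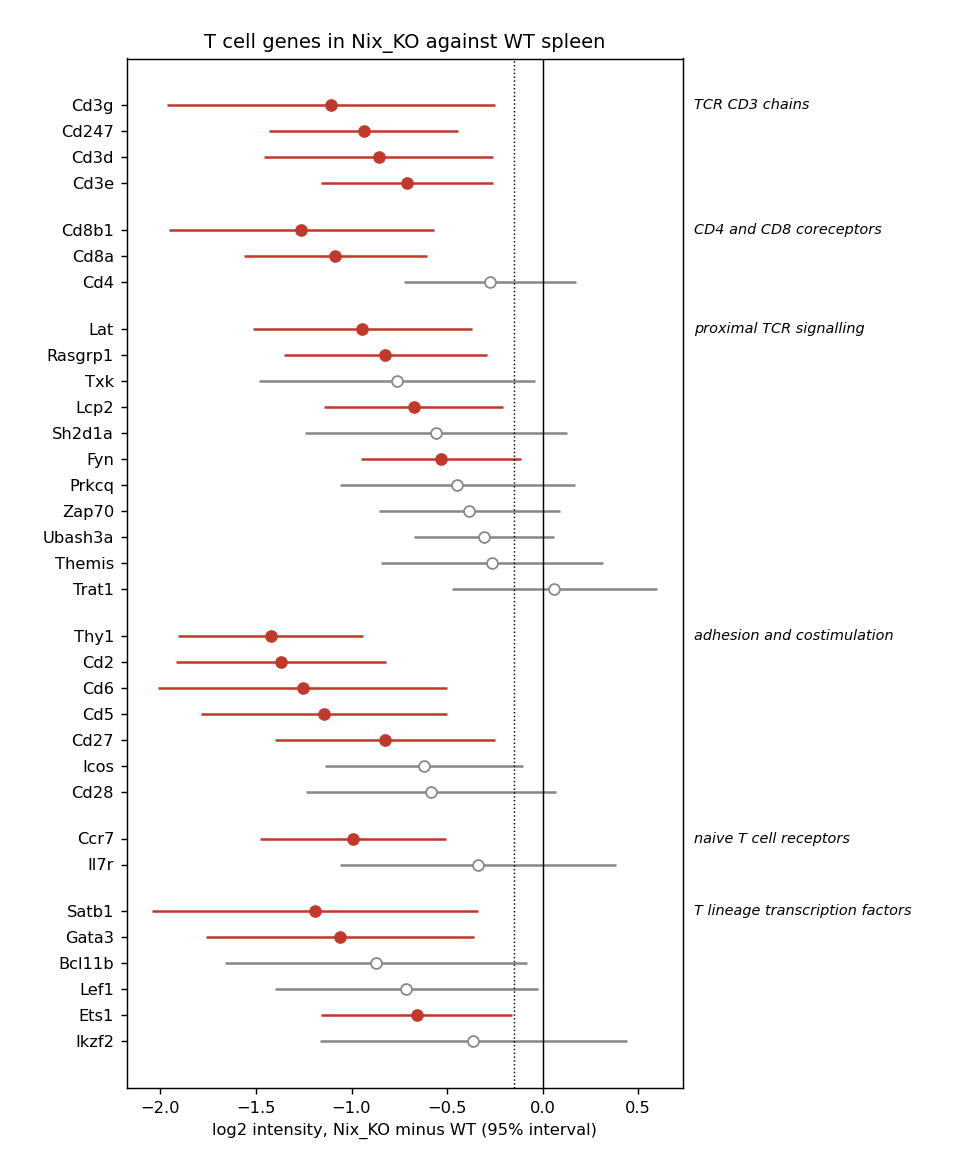
Log2 difference in intensity (Nix_KO minus WT, x axis) of the 33 tested T cell genes, in groups by role. Points are limma estimates from 4 arrays per group with 95% intervals, filled red points fell (adjusted p under 0.05), open grey points did not pass, and the dotted line is the median of all genes tested (-0.15). All but Trat1 lie left of 0.

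These counts depended on single arrays. Without WT 4, WT 5 or WT 6 the number of members that fell was 10, 10 and 8, while 16.1%, 18.4% and 16.5% of all genes fell. Without Nix_KO 10 it was 23, beside 24.2% of all genes. Without Nix_KO 3, WT 3 and WT 5 together it was 4, beside 7.6% of all genes, and the median of the members was -0.87. The 4 were Thy1, Cd2, Cd8a and Cd8b1. With each array centred on its median, which moved the median of all genes to -0.02, 15 members fell and their median was -0.64.

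Beside 24.1% of all genes tested, all 4 CD3 chains fell. They form the signalling part of the receptor: Cd3d, Cd3e and Cd3g encode the delta, epsilon and gamma chains and Cd247 the zeta chain. Cd247 read 9.30, 8.45, 8.31 and 8.51 in Nix_KO 10, 2, 3 and 6, and 9.39, 9.43, 9.65 and 9.83 in WT 3, 4, 5 and 6. Its groups did not overlap, and the difference was -0.94 ± 0.22 SE (adjusted p = 0.0089). Cd3e read 10.50, 9.93, 9.63 and 9.84 in the Nix_KO arrays and 10.41, 10.63, 10.83 and 10.87 in the WT arrays, in the same order. Nix_KO 10 lay above WT 3, and the other Nix_KO arrays lay below every WT array (-0.71 ± 0.20 SE, adjusted p = 0.0199).

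Cd3d read 11.49, 11.03, 10.22 and 10.50 in Nix_KO and 11.42, 11.57, 11.58 and 12.10 in WT arrays (-0.86 ± 0.27 SE, adjusted p = 0.03). Cd3g, the dimmest of the 4 on its probe set, read 8.65, 7.01, 6.72 and 7.93 in Nix_KO and 8.32, 8.57, 8.57 and 9.27 in WT arrays (-1.11 ± 0.39 SE, adjusted p = 0.0449). In both genes Nix_KO 10 lay within the WT range and the other 3 Nix_KO arrays below it. Only the Cd247 call of these 4 was kept whichever single array was left out. That of Cd3e was lost without Nix_KO 3, WT 5 or WT 6 (adjusted p = 0.0515, 0.0559 and 0.0608). That of Cd3d was lost without Nix_KO 3, Nix_KO 6, WT 4, WT 5 or WT 6 (adjusted p from 0.0595 to 0.087), and that of Cd3g without any 1 array other than Nix_KO 10 and WT 3 (adjusted p from 0.0517 to 0.118). The Cd3d and Cd3g calls were also lost with each array centred on its median (adjusted p = 0.0532 and 0.0511). In the fit over all probe sets the only Cd3g probe set did not pass (adjusted p = 0.0638). The brightest Cd247 probe set fell there (adjusted p = 0.0149), but the dimmer tested ones did not pass. They differed by 0.497, the opposite sign, and by -0.997 (adjusted p = 0.285 and 0.0613). The Cd247 call was lost with its probe sets averaged (-0.479, adjusted p = 0.114). It was also lost without Nix_KO 3, WT 3 and WT 5 together (adjusted p = 0.0954).

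The alpha and beta chains that bind antigen are named on these arrays mostly by variable segments, and these names were taken after the annotation was seen. Of the fixed symbols for receptor chains 1 of 19 was annotated, Tcra, and its probe set read under 3.2 in every array. A bright probe set annotated to Trbv1, a beta chain segment, read 12.31, 11.55, 11.42 and 11.52 in Nix_KO and 12.50, 12.61, 12.80 and 13.17 in WT arrays. These groups did not overlap, and the probe set fell by 1.07 on the log2 scale (adjusted p = 0.0094 over all probe sets). The 3 bright probe sets annotated to Trav9d-3, an alpha chain segment, differed by -0.60, -0.76 and -0.62 and did not pass (adjusted p = 0.126, 0.113 and 0.0858). A dimmer one annotated to another alpha chain segment, Trav12n-2, fell by 1.61 without overlap between groups (adjusted p = 0.0173), and one of the beta chain segment Trbv13-2 differed by -0.27 (adjusted p = 0.573). Such probe sets can read many segments that share sequence, so they are given by their annotation only.

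**Figure D2:**
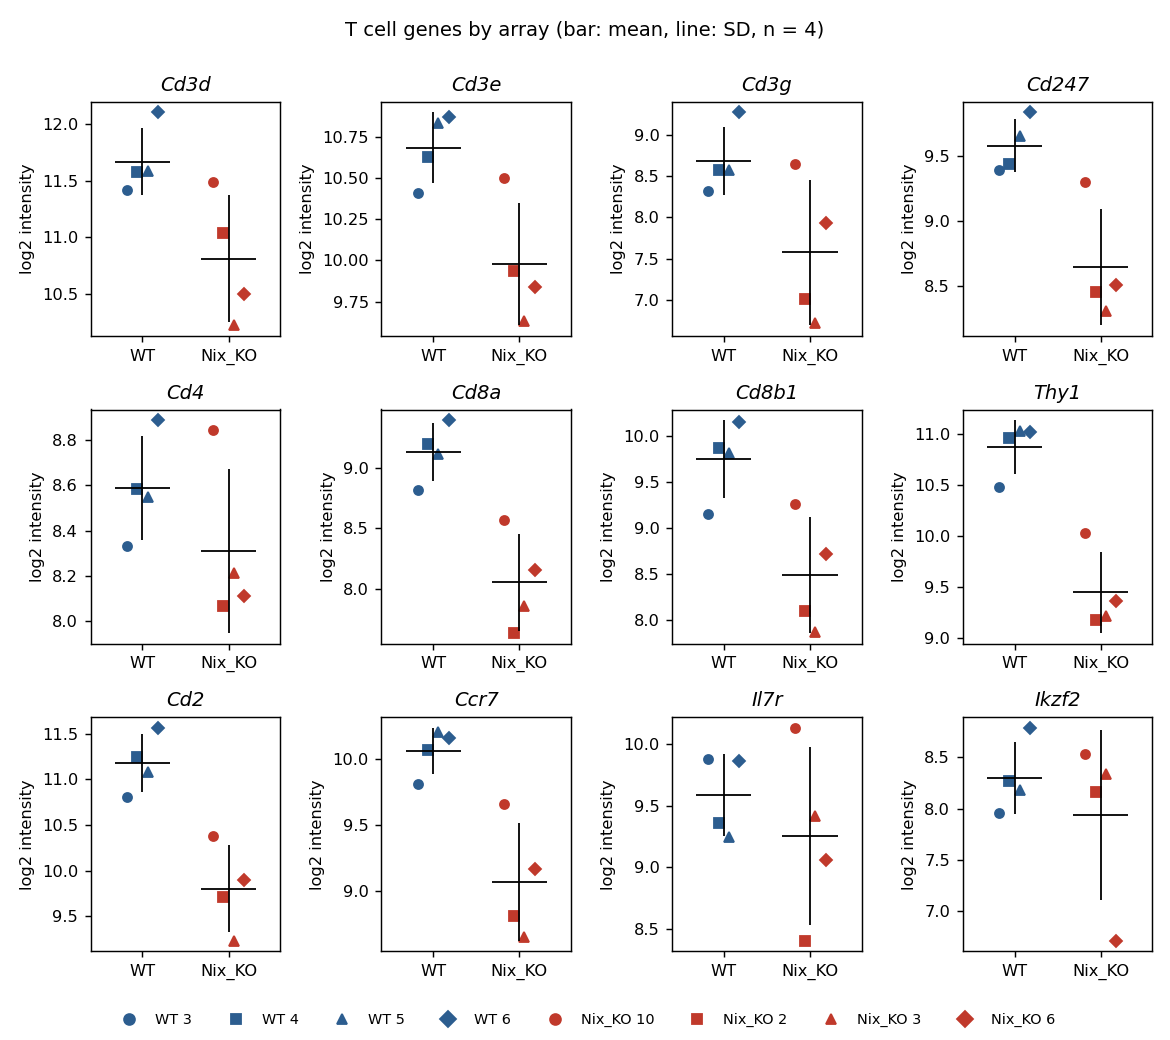
Log2 intensity (y axis, a scale of its own in each panel) of 12 T cell genes in each array, WT on the left and Nix_KO on the right, with the mean (bar) and SD (line) of 4 arrays. Thy1, Cd2, Cd8a, Ccr7 and Cd247 show no overlap between groups, while in Cd4, Il7r and Ikzf2 the groups overlap and Nix_KO 10 (red circle) is the highest Nix_KO array.

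Both CD8 genes fell, beside 24.1% of all genes tested, and Cd4 did not pass. Cd8a and Cd8b1 encode the 2 chains of the CD8 coreceptor, and CD8 alpha is also carried by a subset of dendritic cells. Cd8a read 8.57, 7.63, 7.86 and 8.15 in Nix_KO 10, 2, 3 and 6 and 8.82, 9.20, 9.12 and 9.40 in WT 3, 4, 5 and 6. The groups did not overlap (fold 2.12, -1.08 ± 0.22 SE, adjusted p = 0.00403). Of 5 Cd8a probe sets 4 fell, the largest difference being -1.59, and the dimmest differed by -0.40 (adjusted p = 0.0657 over all probe sets). Cd8b1 read 9.27, 8.10, 7.88 and 8.72 in Nix_KO and 9.16, 9.88, 9.82 and 10.16 in WT arrays, with Nix_KO 10 just above WT 3 (fold 2.40, -1.26 ± 0.31 SE, adjusted p = 0.0105). Both calls were kept whichever single array was left out and without Nix_KO 3, WT 3 and WT 5.

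Cd4 read 8.84, 8.07, 8.22 and 8.11 in Nix_KO and 8.33, 8.58, 8.55 and 8.89 in WT arrays. Nix_KO 10 lay within the WT range and the other 3 below it, and the difference was -0.28 with a 95% interval from -0.73 to 0.17 (adjusted p = 0.305). A dimmer second probe set of Cd4 differed by -0.38 (adjusted p = 0.13 over all probe sets). The interval of the brighter one reaches falls of the size of those in other members, so the test does not show that Cd4 was level.

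Whether the CD8 genes changed by another amount than Cd4 was tested within arrays. The Cd8a minus Cd4 difference was -0.28, -0.44, -0.36 and 0.04 in the Nix_KO arrays and 0.49, 0.62, 0.57 and 0.51 in the WT arrays. No Nix_KO array reached the WT range, and the change was -0.81 (exact permutation test over arrays, two-sided, p = 0.0286, the smallest that 4 against 4 can give). Cd8b1 minus Cd4 was 0.42, 0.03, -0.34 and 0.61 in Nix_KO and 0.82, 1.29, 1.28 and 1.27 in WT arrays, again without overlap (change -0.99, exact permutation p = 0.0286). With the exact permutation p adjusted over the 4 pairs tested, each had 0.0571 and did not pass. With only these pairs at the smallest p that 4 against 4 can give, an adjusted p under 0.05 could not be reached. Both pairs share Cd4, so they are not independent. What part cells other than T cells have in the level of Cd4 was not tested. The change kept its sign under the alternatives, with values from -0.91 to -0.70 for Cd8a and from -1.13 to -0.81 for Cd8b1. The pair of Foxp3 with Cd4 was not run, because Foxp3 was below the minimum.

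**Figure D3:**
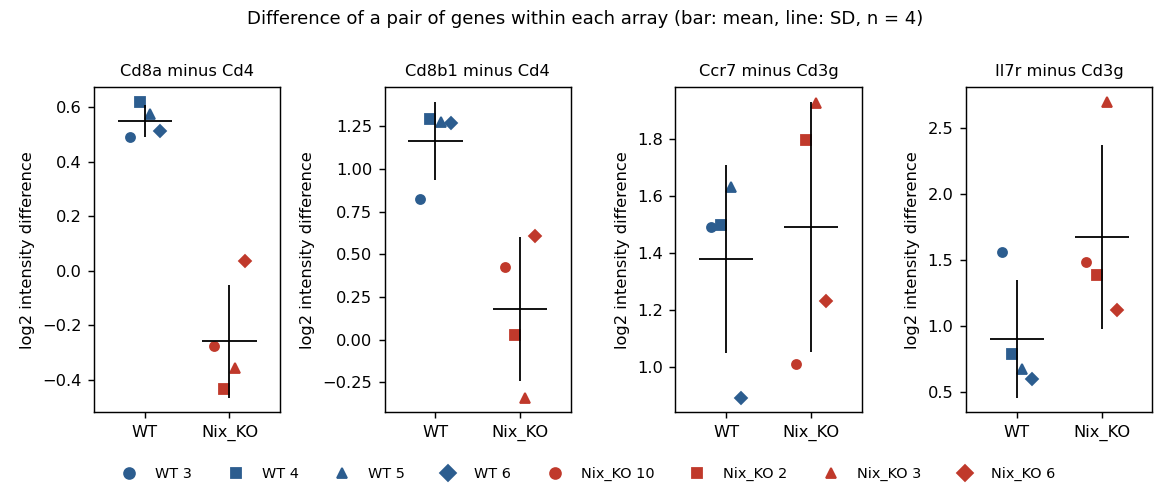
Difference in log2 intensity of a pair of genes within each array (y axis), WT on the left and Nix_KO on the right of each panel, with mean (bar) and SD (line) of 4 arrays. Both CD8 genes minus Cd4 separate the groups, with changes of -0.81 and -0.99, while Ccr7 minus Cd3g and Il7r minus Cd3g overlap.

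Of 11 tested genes of proximal receptor signalling 4 fell and 7 did not pass, beside 24.1% of all genes that fell. Lat, the membrane adaptor that collects the signalling complex, read 10.97, 9.92, 9.90 and 9.91 in Nix_KO and 10.82, 10.93, 11.32 and 11.39 in WT arrays. Nix_KO 10 lay above WT 3 and WT 4, and the other 3 Nix_KO arrays were within 0.02 of each other (-0.94 ± 0.26 SE, adjusted p = 0.0166). Rasgrp1, which activates Ras after diacylglycerol is made, read 9.29, 8.15, 9.01 and 9.16 in Nix_KO and 9.60, 9.88, 9.53 and 9.90 in WT arrays, without overlap (-0.82 ± 0.24 SE, adjusted p = 0.0216). Lcp2, the gene of SLP-76, differed by -0.67 ± 0.21 SE (adjusted p = 0.029) with WT 5 at 9.21 below Nix_KO 6 at 9.23. Fyn, a Src family kinase present in many cell types, read 9.60, 8.84, 9.53 and 9.39 in Nix_KO and 9.67, 10.003, 9.82 and 9.99 in WT arrays (-0.53 ± 0.19 SE, adjusted p = 0.0469).

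With 1 array left out, from 16.1% (without WT 4) to 24.9% (without Nix_KO 6) of all genes fell, beside 24.1% with all arrays. Each of these 4 calls was lost in some such fit. That of Lat was lost without WT 5 or WT 6 (adjusted p = 0.0508 and 0.0506), that of Rasgrp1 without WT 4 or WT 6 (0.0628 and 0.0606), and that of Lcp2 without Nix_KO 2, Nix_KO 3, WT 4 or WT 6 (from 0.0679 to 0.0885). That of Fyn was lost without any 1 array other than Nix_KO 10 and WT 3 (from 0.0505 to 0.122), and also with each array centred on its median (0.0788). In the fit over all probe sets this Fyn probe set did not pass (adjusted p = 0.0628). Another Fyn probe set passed there (-0.88, adjusted p = 0.0173). The members that did not pass were Txk, a Tec family kinase (-0.76), Sh2d1a, encoding the adaptor SAP (-0.56), Prkcq, protein kinase C theta (-0.45), Zap70 (-0.38), Ubash3a, a negative regulator (-0.30), Themis (-0.26) and Trat1 (0.06), with adjusted p from 0.0869 to 0.861. Txk passed without Nix_KO 6 (-0.98, adjusted p = 0.0397).

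Zap70, the kinase recruited by the zeta chain, was read differently by its 3 probe sets. The brightest one differed by -0.38 (adjusted p = 0.209 over all probe sets), while another read 7.78, 6.58, 5.97 and 6.53 in Nix_KO and 7.79, 8.37, 8.55 and 8.89 in WT arrays. On that one the groups did not overlap, although Nix_KO 10 and WT 3 were nearly equal, and it fell by 1.68 (adjusted p = 0.01). The third differed by 0.30 (adjusted p = 0.174). Averaged over the 3 the difference was -0.59 (adjusted p = 0.0338 over all genes).

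Of 7 tested genes of adhesion and costimulation 5 fell, among them the members with the largest differences of the whole set. Over all genes tested 24.1% fell. Thy1, a surface glycoprotein used as the classic mouse T cell marker, read 10.04, 9.18, 9.22 and 9.36 in Nix_KO and 10.48, 10.96, 11.03 and 11.02 in WT arrays. It fell 2.68-fold (-1.42 ± 0.22 SE, adjusted p = 0.00165). Cd2, an adhesion molecule of lymphocytes, read 10.37, 9.71, 9.23 and 9.90 in Nix_KO and 10.80, 11.24, 11.08 and 11.56 in WT arrays. That was a 2.59-fold fall (-1.37 ± 0.25 SE, adjusted p = 0.00276). In both genes the groups did not overlap, and the calls were kept under every alternative run, without Nix_KO 3, WT 3 and WT 5 included (adjusted p = 0.0271 for Thy1 and 0.0249 for Cd2).

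Cd5 and Cd6, neighbouring genes of related scavenger receptor proteins that dampen receptor signals, fell 2.21-fold and 2.39-fold (adjusted p = 0.0116 and 0.0157). Cd5 read 8.495, 7.10, 7.60 and 7.99 in Nix_KO and 8.491, 8.82, 9.14 and 9.31 in WT arrays, so that only Nix_KO 10 touched the WT range. Cd6 read 7.90, 6.35, 6.38 and 7.01 in Nix_KO and 7.70, 7.98, 8.33 and 8.66 in WT arrays, with the same single overlap. Both calls were kept whichever single array was left out and were lost without Nix_KO 3, WT 3 and WT 5 together (adjusted p = 0.0878 and 0.106). Cd27, a costimulatory receptor of the tumour necrosis factor receptor family, differed by -0.83 ± 0.26 SE (adjusted p = 0.0292). Its call was lost without any 1 array other than Nix_KO 10 and WT 3 (adjusted p from 0.0621 to 0.0838).

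Cd28, the main costimulatory receptor, and its relative Icos did not pass. Cd28 read 10.02, 8.68, 9.23 and 8.79 in Nix_KO and 9.40, 9.65, 9.74 and 10.27 in WT arrays (-0.58 ± 0.30 SE, adjusted p = 0.142). Icos read 7.58, 7.06, 6.84 and 6.81 in Nix_KO and 7.47, 7.72, 7.35 and 8.23 in WT arrays (-0.62 ± 0.23 SE, adjusted p = 0.0584). In both, Nix_KO 10 lay within the WT range and the other 3 Nix_KO arrays lay below it. Without Nix_KO 10 both passed (-0.86, adjusted p = 0.0165 for Cd28 and -0.79, adjusted p = 0.02 for Icos). The third member of this family, Ctla4, an inhibitory receptor, was below the minimum in 5 of 8 arrays and was not tested, with levels from 4.55 to 5.66.

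Of the receptor genes of naive T cells, Ccr7 fell and Il7r did not pass. They were not tested against each other, and the part of other cells in their levels was not tested. Ccr7, the chemokine receptor that guides naive T cells, read 9.66, 8.81, 8.64 and 9.16 in Nix_KO and 9.81, 10.07, 10.20 and 10.16 in WT arrays. The groups did not overlap (fold 1.99, -0.99 ± 0.22 SE, adjusted p = 0.0064), and the call was lost without Nix_KO 3, WT 3 and WT 5 together (adjusted p = 0.0687). Il7r, the receptor chain for the survival cytokine interleukin 7, read 10.14, 8.40, 9.42 and 9.06 in Nix_KO and 9.88, 9.36, 9.25 and 9.87 in WT arrays. The highest and the lowest of the 8 values were both Nix_KO arrays (-0.34, 95% interval from -1.06 to 0.39, adjusted p = 0.438), and a second probe set differed by 0.43 (adjusted p = 0.423). Neither gene changed by an amount that differed from that of Cd3g beyond the spread: Ccr7 minus Cd3g changed by 0.11 and Il7r minus Cd3g by 0.77 (exact permutation p = 0.657 and 0.114, adjusted p = 0.657 and 0.152 over 4 pairs). The change of Il7r minus Cd3g was 0.43 without Nix_KO 3 and 1.15 with the probe sets of each gene averaged.

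Of 6 tested transcription factors of the lineage 3 fell, beside 24.1% of all genes. Satb1, a chromatin organiser of T cell development, read 11.90, 9.69, 11.32 and 10.82 in Nix_KO and 11.88, 12.06, 12.21 and 12.35 in WT arrays (-1.19 ± 0.39 SE, adjusted p = 0.0329). Nix_KO 2 lay more than 1 unit below every other array. Gata3, needed for CD4 and T helper 2 cells, read 6.10, 4.40, 5.65 and 5.61 in Nix_KO and 6.21, 6.42, 6.72 and 6.66 in WT arrays, without overlap but with Nix_KO 2 below the minimum (-1.06 ± 0.32 SE, adjusted p = 0.0234). Ets1, an ETS factor of T, B and natural killer cells and other cell types, fell by 0.66 on its brightest probe set (adjusted p = 0.0412).

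None of these 3 calls held in every fit with 1 array left out. The Satb1 call was lost without Nix_KO 6, WT 4, WT 5 or WT 6 (adjusted p from 0.067 to 0.0787), that of Gata3 without WT 4, WT 5 or WT 6 (from 0.0503 to 0.0668), and that of Ets1 without Nix_KO 2, Nix_KO 6, WT 4, WT 5 or WT 6 (from 0.091 to 0.106). The Ets1 call was also lost with arrays centred on their medians (adjusted p = 0.0723). In the fit over all probe sets this Ets1 probe set did not pass (adjusted p = 0.0571), while a dimmer one passed (-1.05, adjusted p = 0.0246). Lef1, which acts with TCF factors, read 8.91, 7.61, 8.31 and 8.71 in Nix_KO and 8.46, 8.99, 9.42 and 9.52 in WT arrays (-0.71 ± 0.31 SE, adjusted p = 0.0925). It passed without Nix_KO 10 (-0.89, adjusted p = 0.048) or WT 3 (-0.93, adjusted p = 0.0382). Bcl11b, which fixes T cell identity, differed by -0.87 ± 0.36 SE (adjusted p = 0.0764), and passed without Nix_KO 10 or Nix_KO 3 (adjusted p = 0.0294 and 0.0392).

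The regulatory T cell members gave little signal to compare. Foxp3, the defining transcription factor, was below the minimum in every array, from 3.52 to 4.07 in Nix_KO and from 3.70 to 4.99 in WT arrays, and was not tested. Ikzf2, encoding Helios, read 8.54, 8.16, 8.33 and 6.71 in Nix_KO and 7.95, 8.27, 8.18 and 8.79 in WT arrays. Apart from the low Nix_KO 6 the arrays mixed (-0.36, 95% interval from -1.17 to 0.44, adjusted p = 0.453). Set side by side, the contrast classes gave 2 of 2 CD8 genes lower (median -1.17), 2 of 4 naive genes (Ccr7 and Satb1, median -0.85), 1 of 4 CD4 genes (Gata3, beside Cd4, Icos and Cd28, median -0.60) and 0 of 1 regulatory gene. With so few genes a class, and 24.1% of all genes lower, these are descriptions of the genes and not tests of the classes.

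Probe sets of 1 gene did not always move together. Of 15 members with more than 1 tested probe set, 9 had probe sets that differed in call and 0 had calls in opposite directions. On Ets1 the probe sets differed by -1.05, -0.66, -0.02 and 0.60, the last with Nix_KO 3, the array with the highest pancreatic signal, at 10.99 and the others between 7.35 and 8.86. What part the pancreatic RNA has in that value was not tested. On Lef1 the dimmer probe set fell by 1.04 without overlap (adjusted p = 0.0126 over all probe sets) and the brighter one did not pass. The Satb1 probe sets ran from -1.51 to 0.08, with 2 of 5 called. Averaging the probe sets of each gene left 18 members lower, with Cd247 (-0.48, adjusted p = 0.114), Ets1 (-0.28, 0.438), Satb1 (-0.93, 0.0591) and Lcp2 (-0.54, 0.051) losing their calls and Zap70, Lef1 (-0.88, 0.0199) and Bcl11b (-0.96, 0.0477) gaining one.

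**Figure D4:**
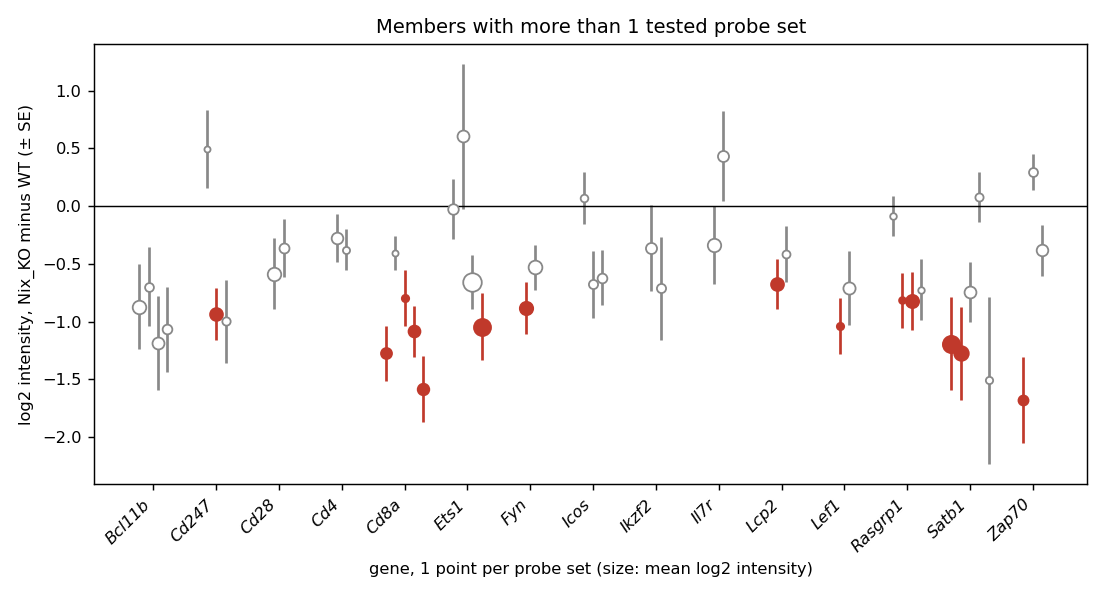
Log2 difference (Nix_KO minus WT, y axis, with SE) of each tested probe set of the 15 members that have more than 1. Filled red points fell (adjusted p under 0.05 over all probe sets), open grey points did not pass, and larger points are brighter probe sets. Zap70 runs from -1.68 to 0.30 and Ets1 from -1.05 to 0.60.

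The Nix_KO arrays were spread more widely than the WT arrays, which was not tested. The mean log2 intensity of the 33 tested members was 8.91 in Nix_KO 10, 7.91 in Nix_KO 2, 8.15 in Nix_KO 3 and 8.26 in Nix_KO 6, and 8.83, 9.02, 9.06 and 9.39 in WT 3, 4, 5 and 6 (SD 0.43 over Nix_KO and 0.23 over WT arrays). Nix_KO 10 thus lay above WT 3 and the other Nix_KO arrays below every WT array. Nix_KO 10 was the highest Nix_KO array in 29 of 33 members and at or above the lowest WT array in 24, against 3, 5 and 6 members for Nix_KO 2, 3 and 6. Among WT arrays WT 6 was the highest in 25 members and WT 3 the lowest in 22. The erythroid marker list ran the other way: its mean was lowest in Nix_KO 10 among Nix_KO arrays (12.74, the others from 13.02 to 13.20), and within WT it was 11.86 in WT 3 and 9.94 in WT 6. The part of red cell RNA in the level of T cell genes was not tested.

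Other lymphocyte markers were lower too. For scale, 24.1% of all genes tested fell, 14.2% rose, and in 23.9% every Nix_KO array lay below every WT array. All 11 tested B cell markers fell (median -1.41), and their groups did not overlap in any of the 11. The summed intensity of that list ran from 15672 to 27678 in Nix_KO and from 47733 to 57788 in WT arrays, and Nix_KO 10 at a mean log2 of 10.40 stayed below the lowest WT array at 11.19. Of 8 tested natural killer cell markers 7 fell (median -1.31). Natural killer cells also carry Cd2, Cd247, Lat, Fyn, Txk, Sh2d1a and Zap70, and what part they have in the levels of these genes was not tested. The part of B cells in the levels of T cell genes, Cd2, Cd5, Cd27 and Ccr7 among them, was not tested either. Of 6 markers of immature thymocytes, 1 was tested, Cd1d1, also expressed by B cells, and it fell (-0.79, adjusted p = 0.00968) with groups that did not overlap. Rag1, Ptcra and Arpp21 were below the minimum in every array. Markers of neutrophils rose in 10 of 10 genes (median 1.83), while 3 of 9 macrophage and 3 of 4 lymphoid stroma markers fell. Their part in the level of T cell genes was not tested.

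**Figure D5:**
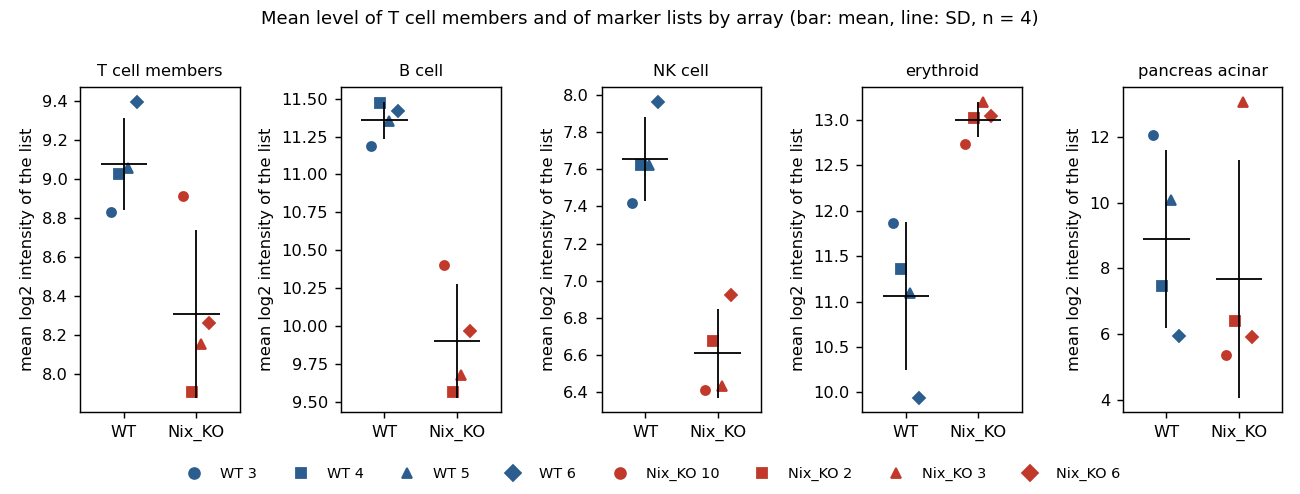
Mean log2 intensity (y axis, a scale of its own in each panel) of the 33 tested T cell genes and of 4 marker lists in each array, WT on the left and Nix_KO on the right, with mean (bar) and SD (line) of 4 arrays. Nix_KO 10 at 8.91 overlaps WT for T cell genes but not for B cell markers, and the pancreatic list stands out in Nix_KO 3, WT 3 and WT 5.

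Genes of the receptor pathway outside the set were lower too, beside 24.1% of all genes that fell. Of 28 tested further genes of T cell receptor signalling 19 fell, 1 rose and 8 did not pass (median -0.85). Those with the smallest adjusted p are used by B cells as well: Vav1, a guanine nucleotide exchange factor, fell 2.40-fold, Nfatc2 and Nfatc1, calcium-driven transcription factors, 2.99-fold and 3.16-fold, and Malt1, a protease of the NF-kappaB branch, 2.49-fold (adjusted p = 0.00207, 0.00228, 0.00324 and 0.00298). Grap2, the adaptor GADS that joins LAT and SLP-76, rose 1.44-fold (adjusted p = 0.024) with groups that did not overlap. Of 9 further genes of naive and circulating T cells 8 fell, including Klf2 (2.37-fold), Actn1 (1.90-fold), Foxo1 (2.11-fold) and S1pr1, the receptor for leaving lymphoid organs (2.87-fold). Dapl1 differed by -0.14 (adjusted p = 0.744). The part of B cells and stroma in the levels of these 9 genes was not tested.

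Among 5 further genes of CD8 T cells 3 fell: Runx3, which silences Cd4 in the CD8 lineage (2.41-fold, adjusted p = 0.00276), Cd7 (1.92-fold) and Eomes (1.61-fold, also a natural killer cell gene). Gzmk and Crtam differed by -0.19 and -0.29 (adjusted p = 0.668 and 0.509). Of 9 further CD4 helper genes 4 fell, Cxcr5, Bcl6, Tbx21 and Il6ra, none of them limited to T cells. Zbtb7b, encoding ThPOK, the factor that commits cells to the CD4 lineage, differed by -0.52 (adjusted p = 0.05003). Of 9 further regulatory T cell genes 3 fell: Tnfrsf18 (2.04-fold, adjusted p = 0.00481), Itgae (1.56-fold) and Nrp1 (1.69-fold). The other 6, among them Izumo1r (-0.63), Tnfrsf4 (-0.19) and Ikzf4 (-0.05), had adjusted p from 0.12 to 0.862. Over all genes tested 24.1% fell, and the part of other cell types in the levels of these lists was not tested.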

How the data were processed

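GCRMA produced the deposited intensity values, per the submitters' processing notes: a background correction, a normalization across arrays and a summary per probe set. The authors deposited intensity that is linear (array medians between 28.8 and 30.6), and log2 was taken with no offset. For the GCRMA version and the step to linear values, nothing is given in the sources used here. GCRMA pulls dim probe sets to a common low level. Replicates are separate animals, 4 per group, and that number limits the precision.

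Of 45101 probe sets, 64 controls were left out, and 22347 of the rest reached log2 5 in at least 4 arrays. The platform annotation gave 1 symbol to 34945 probe sets, several to 932 and none to 9160; only the first were used for genes. Each gene was taken by its brightest probe set over all arrays, and 30 of 33 tested members reached the minimum in all 8 arrays. limma 3.58.1 in R 4.3.3 (lmFit and eBayes, two-sided) was fitted to all genes and to all probe sets, with Benjamini-Hochberg adjustment over each; a call at one level can be missed at the other. The fit was tested on simulated arrays with independent noise and few changed genes, each changed by more than any member here. That test does not measure the error of the calls reported. Pairs of genes were compared by exact permutation over 70 arrangements. Motifs and neighbours came from RefSeq tables of GRCm38.p6, and figures from matplotlib 3.10.9.

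The members, the lists and the alternatives were chosen with earlier results of these data known. Values in every array are given for called members without overlap between groups and for the CD3 chains, coreceptors and contrast classes, and up to 4 called genes are named from each other list; further members and the exceptions in lists were named after their values were seen. Alternatives were no filter, a stricter filter at log2 6, quantile normalization, centring on medians, the mean of probe sets, values under 5 set to 5, array weights, leaving out each array, leaving out 3 arrays, and the title number as a block.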

Additional observations from a re-analysis of the deposited data

Results flagged for a closer look

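The 33 tested members were searched for single arrays far from the other 3 of their group, 66 groups in all, of which chance marks about 1 in 20. There were 2. Lat in Nix_KO was 10.97 in Nix_KO 10, beside 9.90 to 9.92 in the other 3. Thy1 in WT was 10.48 in WT 3, beside 10.96 to 11.03 in the other 3. Lat thus read as high in Nix_KO 10 as in WT arrays, while Thy1 in WT 3 still lay above every Nix_KO array.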

How the results depend on the processing

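No member was called higher in any fit, and no member called lower turned sign. Il7r, Ikzf2, Themis and Trat1, which did not pass, had another sign under some alternatives. The number of members lower was 19, and from 14 to 19 with the stricter filter, quantile normalization, centring, averaged probe sets, values set to 5 or array weights. It was 12 with no filter (13.4% of all genes lower), 4 without Nix_KO 3, WT 3 and WT 5 (7.6%), and from 8 to 23 with single arrays left out (from 16.1% to 24.9%, beside 24.1% with all arrays). Member probe sets lower were 25; 13 with no filter (7.28% of all probe sets), 0 without Nix_KO 3, WT 3 and WT 5 (where 0.85% of all probe sets fell), and from 9 to 36 with single arrays left out (from 9.38% to 18.9%). The change of Ccr7 minus Cd3g was 0.11 and ran from -0.048 to 0.27 with single arrays left out; it was below 0 without Nix_KO 3 (-0.031) and without WT 6 (-0.048). Of 19 members lower, 8 stayed called in each fit with 1 array fewer and 11 lost the call without some array; 5 that had not passed did so without some array. Pair tests with 3 against 2 arrays cannot give p under 0.1.

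With the replicate block, where only the numbers 3 and 6 occur in both genotypes, 12 member genes and 0 member probe sets were lower, while 6.07% of all genes and 0.00447% of all probe sets were. Deviations from the group means correlated at 0.36 for number 3 and 0.12 for number 6. Between arrays of unlike numbers they ran from -0.50 to 0.44. With only 2 shared numbers these values cannot show whether the numbers pair animals. Pair tests were not run with the block or with array weights. Near the minimum of 5, as for Foxp3, Ctla4, Txk and Gata3, values carry little order.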

Other observations

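The order of the Nix_KO arrays differed between lymphocyte lists. Nix_KO 10 was the highest of the 4 in the T cell members (mean log2 8.91) and in the B cell markers (10.40), and the lowest in the natural killer cell markers (6.41, the others from 6.43 to 6.92). This difference was not tested.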
